A study of Mus musculus with 16 samples.

Results

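The 61 genes described here were higher at 2h of ERK activation than before it and lower again at 4h. They were chosen by their own levels in the raw count table, in mouse pluripotent cells that the labels call RSC. Features with over 1% of all counts and genes with under 160 counts in total over the 16 libraries were dropped, which left 11924 of 52636 gene IDs. Counts were then expressed as CPM, scaled to the counts that remained in the library, and L is the mean of log2(CPM + 1) over the 4 libraries of a group. A gene was kept where L at 2h minus L at 0h was at least 0.7, where L at 4h minus L at 2h was at most -0.7, and where L at 4h minus L at 0h was under 0.7. Symbols beginning Egr, Fos, Jun, Ier, Dusp, Krt, Igf2, H19 and Hist were left out, which removed 8 further genes (Dusp8, H19, Hist1h4n, Igf2, Krt7, Krt8, Krt18 and Krt19). Before that step 69 genes, 0.579% of the table, met the thresholds. Of the 61 genes, 47 are annotated as protein-coding, 6 as unconfirmed transcripts (TEC), 4 as antisense RNAs, 2 as pseudogenes, 1 as a miRNA and 1 as a processed transcript, and 12 carry only a predicted-gene name.

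Many genes that respond to ERK are switched on within minutes to hours and switched off again, because feedback inhibitors, repressors and short-lived mRNAs end the response. The best known of these transient genes encode the FOS, JUN and EGR factors, which the choice of symbols leaves out here. What remains is a mixture: kinases, receptors, inhibitors of other pathways, transcription factors, regulators of RNA, and genes of the 2-cell-like state, a rare state of pluripotent cultures marked by Zscan4 and related genes.

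All cells were of the line CRAFR26, which carries a c-RAF kinase construct that 4-hydroxytamoxifen (4OHT) switches on so that ERK becomes active. They grew in N2B27 medium with IWP2, which blocks Wnt secretion, and LIF, and the usual MEK inhibitor PD03 (PD0325901) had been replaced for 48 h by 250 nM PD173074, an inhibitor of FGF receptors. The group 0h had no 4OHT, 2h and 4h had 2 h and 4 h of 250 nM 4OHT, and rev had 4 h of 4OHT and then 2 h of a MEK inhibitor whose dose is not stated. Each group had 4 libraries, 2 from clone 4 and 2 from clone 8, and the labels do not say whether libraries of 1 clone came from separate cultures, so p-values measure the spread between these libraries, which may be partly technical. Both 2h and rev were harvested 2 h after the last compound was added, and rev had 2 h more culture than 4h, so the MEK inhibitor and the added time cannot be told apart. The libraries were total RNA depleted of ribosomal RNA. Totals ran from 4.31 to 10.4 M counts, 8 features held 46.7% to 78.9% of it, and what they left was 1.30 to 5.46 M, with group means of 2.61, 4.11, 2.69 and 2.93 M at 0h, 2h, 4h and rev. In these libraries 3 counts, used as the floor of detection for counting error only, correspond to 0.555 to 2.33 CPM. The 12 pluripotency markers summed to 3676 to 6102 CPM in every library, and summed markers of primitive endoderm, mesoderm, neural, trophoblast and fibroblast cells stayed at or below 58.4 CPM, with Mesp1, Neurog2 and Col1a2 at 3 counts or fewer throughout.

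Sequences are given for the genes on which the account turns, credited to RefSeq on GRCm38.p6, a patch of the mm10 build named in the submitters' processing notes. Of the 61 genes, 37 matched a promoter of the RefSeq table, with 42 promoters of 250 bases before and 50 after the start. The promoter stretches below run from 150 bases before to 30 bases after the start, 5′ to 3′ on the gene's strand. Plk2 is shown because its promoter alone among the 42 holds the cAMP response element TGACGTCA, in capitals (chr13:110394894-110395073, plus strand). Lats2 is shown for the E-box CACGTG and the TEAD motif CATTCC on the opposite strand, both in capitals (chr14:57746094-57746273, minus strand, a start inside the annotated gene). Eda2r is shown for the TATA box TATAAA and the TEAD motif CATTCC, in capitals (chrX:97377180-97377359, minus strand). Mir6240, annotated as a miRNA, is given as the annotated mature sequence with the seed, bases 2 to 8, in capitals (chr5:114851973-114851998, plus strand). Its counts do not measure that mature sequence, and whether its reads come from elsewhere, ribosomal RNA included, was not tested.
Plk2: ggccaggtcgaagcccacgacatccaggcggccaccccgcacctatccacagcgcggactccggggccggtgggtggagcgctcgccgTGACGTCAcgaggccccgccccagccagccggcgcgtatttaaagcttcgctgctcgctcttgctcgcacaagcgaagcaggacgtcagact
Lats2: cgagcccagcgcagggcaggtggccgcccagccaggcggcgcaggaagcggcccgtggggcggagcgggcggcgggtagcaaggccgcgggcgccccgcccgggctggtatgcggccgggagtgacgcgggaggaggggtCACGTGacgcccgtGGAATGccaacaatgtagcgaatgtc
Eda2r: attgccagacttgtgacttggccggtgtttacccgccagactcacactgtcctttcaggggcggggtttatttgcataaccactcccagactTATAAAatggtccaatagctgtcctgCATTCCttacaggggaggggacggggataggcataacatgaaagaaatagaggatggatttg
Mir6240: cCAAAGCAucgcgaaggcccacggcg

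As the choice requires, the 61 genes were high at 2h and low at 0h and 4h. The median difference on log2(CPM + 1) was 0.95 for 2h minus 0h (range 0.70 to 1.93), -0.93 for 4h minus 2h and 0.01 for 4h minus 0h, against -0.07, 0.01 and -0.07 over all 11924 genes. These differences chose the genes and carry no test. All 4 libraries of 2h lay above all 4 of 0h for 30 of the 61 genes (5.98% of all genes) and above all 4 of 4h for 29 (5.16%), so for the rest of the set the groups overlapped in at least 1 library. At the edge of the rule, Parm1 (0.70), Tgm2 (0.71) and Hsd17b7 (0.71) were just inside the threshold on 2h minus 0h, and Zfp367, Gm37736 and Ube2ql1 (0.69 each) were just outside it. For 4h minus 2h, Fzd6 (-0.70), Gm43682 (-0.71) and Mef2a (-0.72) were just inside, and Eogt (-0.70), Scamp1 (-0.69) and Gm2016 (-0.69) just outside. For 4h minus 0h, 6330410L21Rik (0.59), Gm43682 (0.53) and Ccn2 (0.32) were nearest inside, and Rnf225 (0.70), Rprl2 (0.76) and Trim36 (0.77) outside.

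**Figure D1:**
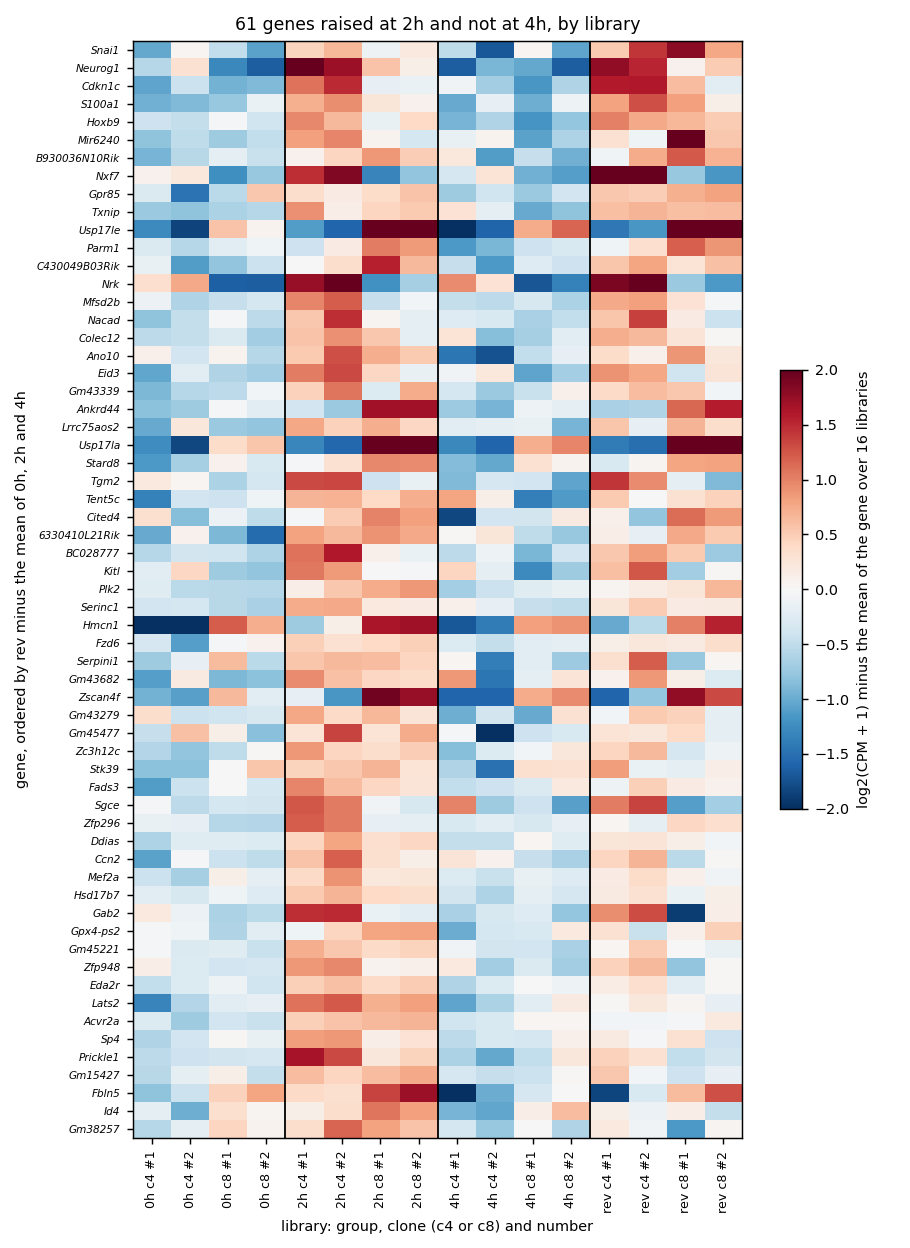
Each row is 1 of the 61 genes and each column 1 of the 16 libraries (group, clone c4 or c8, and number within the clone). Colour is log2(CPM + 1) minus the mean of the gene over the 16 libraries, saturating at -2 and 2; the 2h block is high by choice of the genes, and most rows are also high in the rev block.

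The thresholds on levels did not use the group rev, and there the genes were high again, but the minimum of 160 counts did include the rev libraries. Of the 61 genes, 18 had under 160 counts in the 12 other libraries and met the minimum only through rev: Nxf7, Nacad, Gpr85, Neurog1, S100a1, Tgm2, Gm43339, Gab2, Sgce, BC028777, Tent5c, Gm38257, Snai1, Serpini1, Gm43279, Zscan4f, Gm43682 and Mfsd2b. Levels of these genes at rev are a description, and rev is tested on the 43 others. The median over the 61 genes of log2(CPM + 1), each gene centred on its mean, was -0.44 ± 0.086 at 0h, 0.51 ± 0.12 at 2h, -0.40 ± 0.089 at 4h and 0.26 ± 0.11 at rev (SD, n = 4). The 4 rev libraries ran from 0.12 to 0.36, above the highest 0h or 4h library (-0.30) and below the lowest 2h library (0.40). Over the 43 genes that met the minimum outside rev, the rev libraries ran from 0.18 to 0.24, the 0h and 4h libraries from -0.53 to -0.19 and the 2h libraries from 0.43 to 0.59, so these groups did not overlap either. Over all 61, rev minus 0h had a median of 0.65, with 59 of 61 genes above 0, rev minus 4h one of 0.71, with 61 above 0, and rev minus 2h one of -0.30, with 13 above and 48 below. Over all genes these medians were -0.07, -0.00 and 0.00. Rev exceeded 0h by at least 0.7 for 30 of the 61 genes (2.55% of all genes). All 4 rev libraries lay above all 4 of 0h for 19 genes (4.31%) and above all 4 of 4h for 15 (4.14%).

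**Figure D2:**
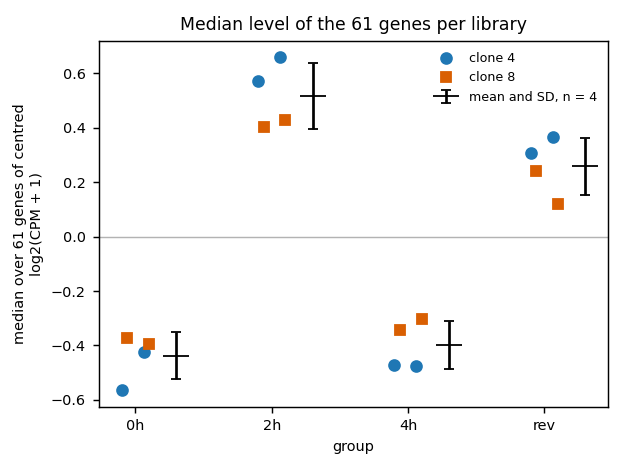
Median over the 61 genes of centred log2(CPM + 1) for each library by group; circles are clone 4 and squares clone 8, and the black mark gives the mean and SD of 4 libraries. The rev libraries, whose counts entered the minimum but not the thresholds, sit between 0.12 and 0.36, and no 0h or 4h library exceeds -0.30.

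Rev was tested against the mean of 0h, 2h and 4h, a contrast that enters none of the thresholds on levels but shares libraries with each of them. In edgeR's quasi-likelihood test over all 12742 genes kept by its filter, with the clone as covariate and Benjamini-Hochberg adjustment over all of them, 11 of the 43 genes that met the count minimum outside rev were higher at rev (2.31% of the tested genes with that many counts outside rev). None of the 43 was lower, and at an unadjusted p under 0.05 the counts were 18 and 0. Their median log2 change was 0.34, with 41 of 43 above 0. This choice of 43 was made after the effect of the minimum was seen. The counts that follow are over all 61 genes and are a description, because 18 of these met the minimum only through rev. Of the 61, 16 were higher (2.35% of all tested genes), 5 of them among those that met the minimum through rev, and 0 were lower (1.79%). At an unadjusted p under 0.05 the counts were 27 and 0, and by DESeq2 16 and 0 (316 and 280 of all 12742 genes). For the unadjusted cut, in this paragraph and below, the count over all genes is not given. Those counts therefore have no background beside them. The median over the 61 was 0.49, with 58 above 0, against a median of 0.00 with 50.4% above 0 over all tested genes. Fitted alone, clone 4 had a median of 0.48 with 53 of 56 tested genes above 0 and 19 called (7.12% of all genes), and clone 8 one of 0.46 with 45 of 55 above 0 and 14 called (3.02%). Among the 28 genes with a mean of at least 50 counts at 2h, 9 were called and 26 were above 0, with a median of 0.28. Of the 7 called among the 33 with fewer counts, 5 met the minimum only through rev. Scaling by library totals, much of which the 8 features take up, moved the median of all genes to -0.26, that of the 61 to 0.20 with 42 above 0, and called 6 of the 61. Without the clone as covariate 3 were called. Over all 12742 genes, 52 were higher with library totals and 46 without the covariate, against 300 in the main fit. Among the genes named by rule, Plk2, Txnip, Nrk, Stard8, Parm1, Usp17la and Usp17le lost the call with library totals, and the same genes except Txnip, together with Cdkn1c, lost it without the covariate. Without the second rev library of clone 4 the count was 9.

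The contrast shares its libraries with the differences that chose the genes, those of 2h were the deepest, and for the 18 genes it also shares the rev counts with the minimum. In 500 variable genes that exclude the 61, the third principal component (9.91% of the variance) set rev beside 2h in clone 4 and not in clone 8. In clone 4 its scores were 9.40 and 11.8 at 2h, 4.34 and 5.43 at rev and -8.75 and -5.93 at 4h. In clone 8 they were 5.37 and 5.54 at 2h, -1.37 and -1.11 at rev and -0.25 and 1.12 at 4h. The fourth component (5.96%) set rev (6.69 to 9.93) apart from 2h (-4.33 to -0.76) and from the other groups. The part of these in the result at rev was not tested.

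**Figure D3:**
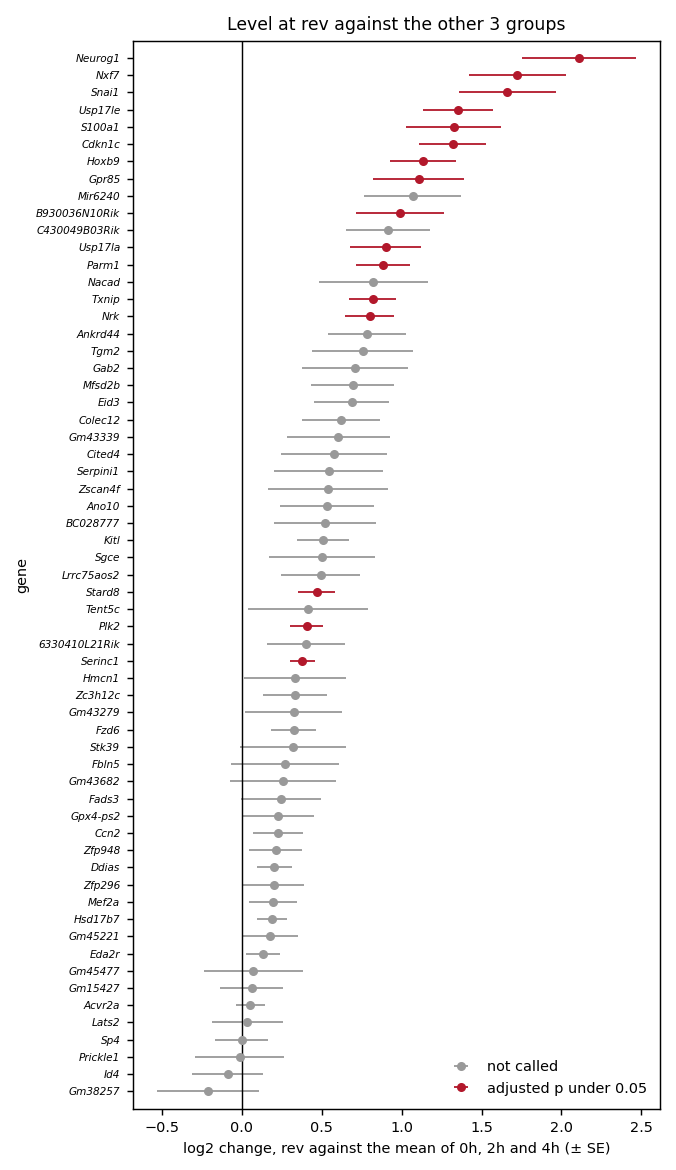
Log2 change of each of the 61 genes at rev against the mean of 0h, 2h and 4h, with its standard error, from edgeR's quasi-likelihood fit. Red points are the 16 genes with an adjusted p under 0.05, of which Neurog1, Nxf7, Snai1, S100a1 and Gpr85 met the count minimum only through rev, and 58 of 61 points lie to the right of 0.

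Comparisons of rev with a single group share libraries with the rule. They are given over all 61 genes, 18 of which met the count minimum only through rev, and are a description. Against 4h, 24 genes were called higher (4.5% of all genes) and against 0h 29 (5.51%), and the choice of genes low in those groups favours both. Against 2h, where the choice favours lower values, 2 genes were called lower (1.01%), Acvr2a and Lats2, and 0 higher, with 16 lower and 1 higher at an unadjusted p under 0.05 and 2 and 0 by DESeq2. Without any 1 of 11 libraries, 1 gene in place of 2 was called lower. For the comparisons that chose the genes, edgeR called 50 of 61 higher at 2h than at 0h (9.49% of all genes) and 50 lower at 4h than at 2h (6.36%), and nothing is read from these. Below, the values of a group are given as clone 4 libraries 1 and 2, then clone 8 libraries 1 and 2. The genes were named by a rule of counts, rank and list membership, and those named outside it are marked as chosen after their values were seen.

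Among the genes long known as early responses to growth signals, Plk2 encodes a polo-like kinase induced by serum (ENSMUSG00000021701, chromosome 13, 110395046 to 110400844, plus strand). It had 72.1, 59.1, 58.2 and 57.5 CPM at 0h, 94.3, 125, 144 and 158 at 2h, 53.2, 63.5, 72.8 and 77.6 at 4h and 89.3, 95.1, 102 and 137 at rev. All 2h libraries and all rev libraries lay above all 0h and 4h libraries, clone 8 being highest at 2h. Plk2 rose at rev against the mean of the other groups by 0.41 (SE 0.103, edgeR adjusted p 0.0292) on the log2 scale, a call lost in clone 4 alone and without any 1 of 3 rev libraries (clone 4 number 1 or 2, or clone 8 number 2).

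Txnip, whose protein binds thioredoxin and restrains glucose uptake (ENSMUSG00000038393, chromosome 3, 96557957 to 96561883, plus strand), had 31.9, 30.4, 34.4 and 35.99 CPM at 0h, 103, 59.6, 73.4 and 78.1 at 2h, 66.02, 46.96, 26.5 and 30.4 at 4h and 82.3, 86.8, 82.2 and 83.5 at rev. Its rev libraries lay within the range of 2h and above every 0h and 4h library, while 2h overlapped 4h through clone 4. Its log2 change at rev against the mean of the others was 0.82 (SE 0.149, edgeR adjusted p 0.00302). Between 4h and 2h the clones differed, with a fall that was larger in clone 8, the difference being -0.91 in log2 units (edgeR adjusted p 0.00895), and at 4h clone 8 was at or below its 0h level while clone 4 was above it. A share of 19.4% of its exon length overlaps Gm15441 on the opposite strand, and reads of the pair cannot be separated without the strand setting.

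Lats2 and Ccn2 belong to the Hippo pathway, in which LATS kinases phosphorylate and restrain the co-activator YAP, and YAP with TEAD factors switches on target genes that include Ccn2 and Lats2 itself. Lats2 (ENSMUSG00000021959, chromosome 14, 57689662 to 57758388, minus strand), whose promoter with its TEAD motif is printed above, had 3.304, 6.15, 8.23 and 8.61 CPM at 0h, 21.7, 24.2, 16.5 and 17.9 at 2h, 4.15, 5.95, 8.29 and 11.2 at 4h and 9.96, 11.51, 10.1 and 8.59 at rev. All 4 libraries of 2h were above all others, and rev overlapped 0h and 4h. Lats2 was near the mean of the others at rev, at 0.04 (SE 0.223, edgeR adjusted p 0.959), and it was lower than at 2h, at -0.98 (SE 0.246, edgeR adjusted p 0.0446). The call against 2h lies near the threshold, and 42.4% of its exon length is shared with the same-strand model Gm49361.

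Ccn2, a secreted matrix-associated protein (ENSMUSG00000019997, chromosome 10, 24595442 to 24598683, plus strand), had 33.04, 69.3, 52.2 and 49.3 CPM at 0h, 105, 163, 88.9 and 76.8 at 2h, 85.03, 75.4, 50.8 and 44.8 at 4h and 95.2, 114, 48.1 and 71.5 at rev. Its 2h libraries were above all 0h libraries, overlapped 4h, and its rev libraries overlapped all groups. The log2 change at rev against the mean of the others was 0.23 (SE 0.159, edgeR adjusted p 0.472). It alone among the 61 met the rule in neither clone taken by itself. Of 15 tested genes of a YAP and TEAD target list, edgeR called 6 higher at 2h than at 0h (9.49% of all genes) and 5 lower at 4h than at 2h (6.36%; Amotl2, Ccn1, Ccn2, Crim1 and Lats2), at medians of 0.53 and -0.23 on the log2 scale. Ccn2 and Lats2, in both counts, were chosen on those same values, and without the clone covariate 1 in place of 5 was lower (132 of all 12742 genes). At rev against the mean of the others 3 were higher (Amotl2, Arhgef17 and Tead1), but 0 by edgeR with library totals (0 at an unadjusted p under 0.05) and 0 without the clone covariate (3), against 3 by DESeq2, and 10 of 15 were above 0, or 5 of 15 with library totals. Over all 12742 genes edgeR called 52 higher at rev with library totals and 46 without the covariate.

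Eda2r, a receptor of the TNF receptor family and a known target of p53 (ENSMUSG00000034457, chromosome X, 97333840 to 97377216, minus strand), had 73.8, 85.7, 97.4 and 79.02 CPM at 0h, 145, 158, 136 and 149 at 2h, 68.4, 85.99, 104 and 97.2 at 4h and 115, 132, 88.4 and 106 at rev. The 2h libraries lay above all 0h and 4h libraries, and rev lay between and overlapped 0h and 4h. Its log2 change at rev against the mean of the others was 0.13 (SE 0.106, edgeR adjusted p 0.54). From 4h to rev the clones differed by -0.74 (edgeR adjusted p 0.00661), with clone 4 higher at rev than at 4h and clone 8 overlapping.

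Eda2r was the only one of the 61 genes in a list of p53 targets, and the list is given here by its counts. Eda2r is among the genes called at 2h and at 4h below, and was chosen on those same values. Of 17 tested p53 target genes, edgeR called 12 higher at 2h than at 0h, a share to be set against 9.49% of all genes, and 10 lower at 4h than at 2h, against 6.36%. The median log2 change was 0.52 and then -0.53, against 0.00 for all genes in both. In each clone alone 11 of the 17 were higher at 2h, with 1 lower in clone 4, and 6 were without the clone covariate or with library totals. Over all genes edgeR called 1541 of 12759 higher in clone 4 alone and 1133 of 12831 in clone 8 alone. Of 12742 genes, 438 were higher without the covariate and 348 with library totals. The 10 lower at 4h than at 2h became 4 without the clone covariate and 7 with library totals or the replicate block. Over all 12742 genes the lower ones were 132 without the covariate, 237 with library totals and 587 with the block, against 810 in the main fit. The list was written with earlier results of these data in view, and Mdm2, Cdkn1a, Sesn1 and Zmat3 are named after their values were seen. Sesn1 and Zmat3 differed by -0.22 and -0.09 at 2h against 0h (edgeR adjusted p 0.402 and 0.558). Mdm2, which encodes the ubiquitin ligase that degrades p53, had 260.4, 254, 256 and 255 CPM at 0h, 355, 388, 460.5 and 456 at 2h, 186, 223, 274 and 265 at 4h and 324, 309, 353 and 377 at rev. All its 2h and rev libraries were above every 0h and 4h library. It changed by 0.77 at 2h against 0h (edgeR adjusted p 7.305e-06) and by -0.83 at 4h against 2h (edgeR adjusted p 1.63e-05). Cdkn1a, the CDK inhibitor p21, had 92.5, 81.2, 71.8 and 82.5 CPM at 0h, 157, 177, 94.4 and 95.5 at 2h, 38.7, 56.9, 59.9 and 57.99 at 4h and 166, 159, 119 and 126 at rev. Its 4h libraries were below all others, and it rose at rev against the mean of the others by 0.80 (edgeR adjusted p 0.0013); Mdm2 rose there by 0.24 (edgeR adjusted p 0.0484), and these were the 2 genes of the list called at rev, in place of which 1 was called without the clone covariate and 0 by edgeR with library totals (1 at an unadjusted p under 0.05; 3 by DESeq2). Over all 12742 genes 46 were higher at rev without the covariate and 52 with library totals. At rev 16 of the 17 were above the mean of the other groups, but 6 of 17 with library totals, so the direction there depends on the scaling.

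Cdkn1c, which encodes the CDK inhibitor p57 and is imprinted (ENSMUSG00000037664, chromosome 7, 143458339 to 143461050, minus strand), had 4.405, 7.38, 4.83 and 5.09 CPM at 0h, 22.7, 30.6, 9.07 and 9.25 at 2h, 9.68, 5.95, 4.01 and 6.399 at 4h and 32.8, 33.02, 16.3 and 8.59 at rev. Within each clone the 2h and rev libraries were above those of 0h and 4h, and clone 4 was the higher clone at 2h and rev. Its log2 change at rev against the mean of the others was 1.32 (SE 0.209, edgeR adjusted p 0.00103), and in clone 8 alone, at 0.88, it was not called. A share of 30.7% of its exon length overlaps Gm44732 on the opposite strand. Sgce, another imprinted gene, named after its values were seen, had 6.81 to 8.03 CPM at 2h in clone 4 and 2.04 to 2.62 in clone 8, and met the count minimum only through rev.

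Several genes of the set encode parts of signalling pathways other than ERK. Acvr2a, a receptor for activin and related ligands (ENSMUSG00000052155, chromosome 2, 48814109 to 48903269, plus strand), had 32.5, 23.8, 30.1 and 28.6 CPM at 0h, 55.5, 58.9, 62.1 and 63.6 at 2h, 29.7, 31.7, 40.4 and 40.4 at 4h and 38.1, 38.02, 38.8 and 45.3 at rev. The 2h libraries of both clones stood clear of every other library. At rev it was not called against the mean of the others, at 0.05 (SE 0.09028, edgeR adjusted p 0.799), and was lower than at 2h, at -0.59 (SE 0.104, edgeR adjusted p 0.00477).

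Prickle1, a component of planar cell polarity signalling (ENSMUSG00000036158, chromosome 15, 93499114 to 93595891, minus strand), had 6.06, 6.56, 6.81 and 7.04 CPM at 0h, 30.8, 24.2, 10.9 and 12.8 at 2h, 5.53, 3.97, 6.15 and 10.8 at 4h and 12.9, 11.51, 6.21 and 6.87 at rev. At 2h clone 4 was well above clone 8, and every 2h library was above every 0h and 4h library. The clones differed in the change at 2h against 0h by -1.40 (edgeR adjusted p 0.0323) and at 4h against 2h by 1.95 (edgeR adjusted p 0.00131). At rev it was near the mean of the others, at -0.01 (SE 0.278, edgeR adjusted p 0.988). Fzd6, a Frizzled receptor for Wnt ligands, had 21.1 to 24.1 CPM at 2h and 18.5 to 22.0 at rev, against 7.38 to 18.0 at 0h and 11.9 to 14.8 at 4h. It was not called at rev, at 0.32 (SE 0.142, edgeR adjusted p 0.216).

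Id4 encodes a helix-loop-helix protein that blocks basic helix-loop-helix factors (ENSMUSG00000021379, chromosome 13, 48261228 to 48266026, plus strand). It had 12.7, 6.97, 18.7 and 15.3 CPM at 0h, 16.1, 19.1, 32.1 and 26.6 at 2h, 7.26, 6.61, 16.3 and 23.2 at 4h and 16.1, 13.5, 16.3 and 10.3 at rev. The 2h libraries overlapped 0h and 4h, and the level at rev was near that of 0h, with a log2 change against the mean of the others of -0.09 (SE 0.221, edgeR adjusted p 0.877). Its change from 4h to rev differed between clones by -1.72 (edgeR adjusted p 0.00577), up in clone 4 and down in clone 8. Kitl, the ligand of the receptor KIT, and Gab2, an adaptor of receptor kinases, were named after their values were seen. Kitl was at 33.7 to 38.8 CPM at 2h in clone 4 and 17.8 to 18.3 in clone 8, with a log2 change at rev of 0.51 (SE 0.162, edgeR adjusted p 0.082). Gab2 was at 9.36 to 9.53 CPM at 2h in clone 4 and 2.22 to 2.42 in clone 8, and met the count minimum only through rev.

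Transcription factor genes of the set included Zfp296, Sp4 and Mef2a. Zfp296, a zinc-finger gene of pluripotent cells (ENSMUSG00000011267, chromosome 7, 19577287 to 19580656, plus strand), had 88.1, 87.4, 66.2 and 65.3 CPM at 0h, 228, 203, 87.7 and 85.8 at 2h, 79.2, 84.002, 78.4 and 87.99 at 4h and 101, 85.6, 131 and 124 at rev. At 2h the clone 4 libraries stood far above the clone 8 libraries, whereas at rev clone 8 was the higher clone. The change at 2h against 0h differed between the clones by -0.97 (SE 0.161, edgeR adjusted p 0.000172) and that at 4h against 2h by 1.39 (SE 0.159, edgeR adjusted p 1.34e-07). In the fit of clone 8 alone it was higher at rev against the mean of the others, by 0.72; over both clones the change was 0.20 (SE 0.192, edgeR adjusted p 0.625).

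Sp4, which encodes a factor that binds GC boxes (ENSMUSG00000025323, chromosome 12, 118234933 to 118301440, minus strand), had 14.3, 16.8, 22.7 and 19.9 CPM at 0h, 40.5, 41.5, 24.6 and 27.6 at 2h, 15.2, 17.9, 17.4 and 23.997 at 4h and 25.5, 22.01, 27.9 and 16.5 at rev. Every 2h library was above every 0h and 4h library, though clone 8 was so by little, and the clones differed at 2h against 0h by -1.17 (SE 0.301, edgeR adjusted p 0.0127). At rev it was at the mean of the others, at 0.00 (SE 0.166). Mef2a, a MADS-box factor gene (ENSMUSG00000030557, chromosome 7, 67231163 to 67372858, minus strand), had 24.8, 20.9, 36.6 and 29.7 CPM at 0h, 44.5, 64.01, 39.1 and 39.96 at 2h, 27.7, 24.5, 30.2 and 27.996 at 4h and 38.1, 43.8, 36.5 and 32.3 at rev. All its 2h libraries were above all 0h and 4h libraries, and rev overlapped 2h and 0h. Its clone difference at 2h against 0h was -1.09 (SE 0.258, edgeR adjusted p 0.00648), and its change at rev against the mean of the others 0.20 (SE 0.151, edgeR adjusted p 0.524).

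Neurog1, Snai1 and Hoxb9 were low in counts, are named here after their values were seen, and the first pair met the count minimum only through rev. Neurog1, a proneural factor gene, had 1.101, 2.87, 0.284 and 0 CPM at 0h, 12.7, 9.19, 3.63 and 2.41 at 2h, 0, 0.661, 0.535 and 0 at 4h and 9.66, 8.01, 2.33 and 3.44 at rev. The 2h and rev libraries of each clone were above its 0h and 4h libraries, and 4h held at most 2 counts a library, so no size of change is given. Snai1, a repressor of E-cadherin, had 1.65, 4.51, 2.84 and 1.56 CPM at 0h, 6.35, 7.49, 4.03 and 5.18 at 2h, 2.77, 0.661, 4.55 and 1.5998 at 4h and 6.74, 13.5, 17.8 and 8.24 at rev. Its mean was highest at rev, where all 4 libraries exceeded all 0h and 4h libraries, and rev is not tested for it because its rev counts helped to choose it. Hoxb9, a homeobox gene, had 3.85, 3.69, 5.39 and 3.91 CPM at 0h, 11.7, 9.19, 4.84 and 7.59 at 2h, 2.42, 3.31, 1.87 and 2.7996 at 4h and 12.01, 10.01, 9.31 and 8.24 at rev. All rev libraries were above all 0h and 4h libraries, at 1.13 (SE 0.208, edgeR adjusted p 0.00332), and its call was lost in clone 8 alone and with library totals.

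**Figure D4:**
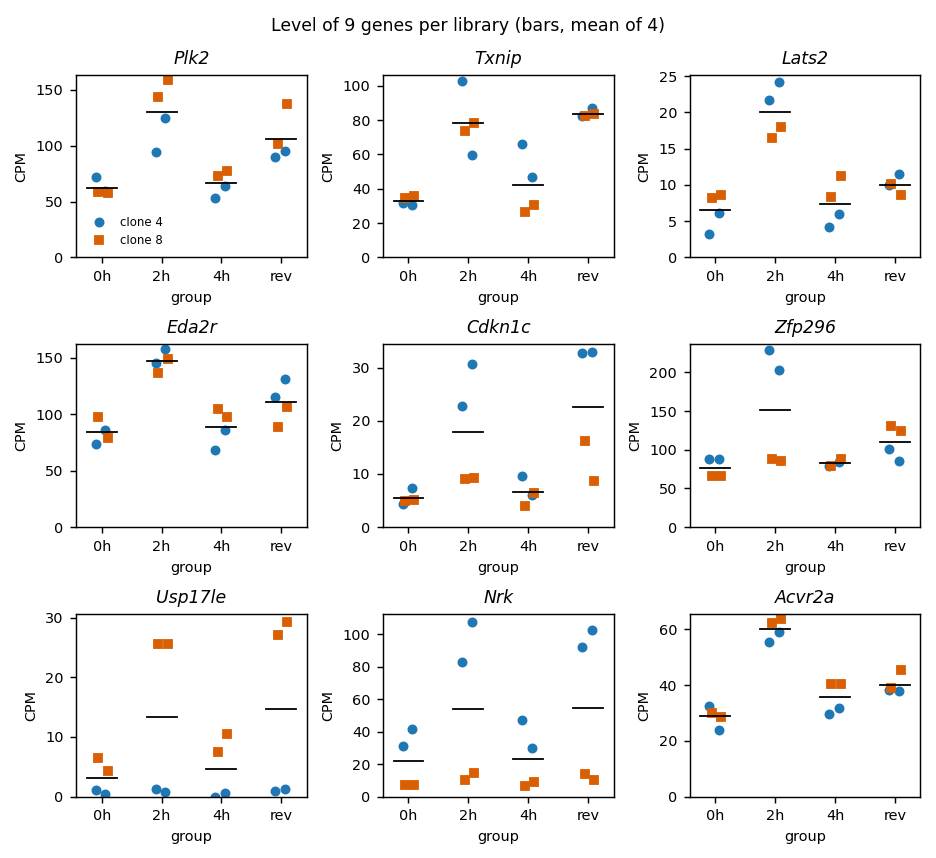
CPM of 9 genes in each library by group, with the mean of 4 as a bar and every vertical axis starting at 0; circles are clone 4 and squares clone 8. Plk2 and Txnip are high at 2h and rev, Lats2 and Acvr2a at 2h, Zfp296 at 2h in clone 4, and Usp17le and Nrk in 1 clone each.

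Zc3h12c encodes a CCCH zinc-finger protein of a family of mRNA-cleaving enzymes (ENSMUSG00000035164, chromosome 9, 52111344 to 52168572, minus strand). It had 11.01, 9.43, 11.6 and 17.2 CPM at 0h, 31.8, 23.2, 21.8 and 24.2 at 2h, 8.99, 13.9, 16.3 and 19.997 at 4h and 23.1, 27.3, 13.2 and 15.8 at rev. The 2h libraries were above all 0h and 4h libraries, and rev was high in clone 4 and below 4h in clone 8, a difference between clones from 4h to rev of -1.50 (SE 0.364, edgeR adjusted p 0.00486). Over both clones the change at rev against the mean of the others was 0.33 (SE 0.2001, edgeR adjusted p 0.392). Of 25 tested mRNA decay factor genes, 12 were higher at 2h than at 0h (9.49% of all genes) and 5 lower at 4h than at 2h (6.36%) by edgeR. Zc3h12c, the 1 gene of the set in the list, is in both counts and was chosen on those same values. With library totals these counts were 5 and 1, and without the clone covariate 8 and 2. Over all 12742 genes they were 348 and 237 with library totals and 438 and 132 without the covariate. Tent5c, a poly(A) polymerase gene, and Nxf7, of the family of mRNA export factors, are named after their values were seen. Tent5c had 4.23 to 5.55 CPM at 2h in all 4 libraries, and at 4h it had 0.535 and 0.7999 CPM in clone 8 and 5.88 and 3.31 in clone 4, a difference of -2.69 (SE 0.7496, edgeR adjusted p 0.0125). Nxf7 was at 7.36 and 9.87 CPM at 2h and 12.3 and 14.3 at rev in clone 4, against 1.38 to 2.65 at 0h and 4h. In clone 8 it stayed at 0.782 CPM or less, within the floor of 3 counts in all but 1 library.

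Usp17la, Usp17le and Zscan4f mark the 2-cell-like state; the first pair encode deubiquitinases and the third a zinc-finger protein. Usp17le (ENSMUSG00000043073, chromosome 7, 104768049 to 104777470, minus strand) had 1.101, 0.4102, 6.53 and 4.303 CPM at 0h, 1.34, 0.681, 25.6 and 25.5 at 2h, 0, 0.661, 7.49 and 10.4 at 4h and 0.879, 1.25, 27.2 and 29.2 at rev. Usp17la (ENSMUSG00000054568, chromosome 7, 104857009 to 104862667, plus strand) had 1.101, 0.4102, 5.39 and 6.26 CPM at 0h, 1.003, 0.681, 22.2 and 28.9 at 2h, 1.04, 0.661, 7.22 and 8.799 at 4h and 0.879, 0.7505, 20.2 and 21.6 at rev. Both were expressed above 5 counts in clone 8 alone, where 2h and rev stood above 0h and 4h, and the rise at 2h minus 0h in clone 8 was 2.07 and 1.95 on log2(CPM + 1). At rev against the mean of the others the changes were 1.35 (SE 0.219, edgeR adjusted p 0.00116) and 0.90 (SE 0.224, edgeR adjusted p 0.0264). The call of Usp17la was lost by DESeq2 and without any 1 of 4 libraries, namely the first 0h library of clone 8 and 3 of the rev libraries (clone 4 number 1, clone 8 numbers 1 and 2).

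Zscan4f moved likewise, at 10.5 and 9.07 CPM at 2h in clone 8 and at 1.67 CPM or less in clone 4, and it met the count minimum only through rev. Counts of these genes are uncertain, since each belongs to a family of near-identical copies. A list of 5 other markers of that state, Zscan4c, Zscan4d, Zfp352, Tcstv3 and Usp17lc, was summed. Its summed level was 4.91, 4.47, 16.6 and 15.9 CPM at 0h, 2.65, 1.01, 61.9 and 68.2 at 2h, 4.098, 3.27, 26.8 and 30.9 at 4h and 2.901, 0.743, 49.2 and 61.6 at rev. In clone 8 every 2h and rev library was above every 0h and 4h library, and clone 4 was low throughout. Zfp352 did not have this order, with means of 0.642, 2.27, 1.71 and 0.86 CPM at 0h, 2h, 4h and rev. Whether more cells entered that state or each such cell held more of these RNAs cannot be told apart in bulk libraries, which holds for every gene here.

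Mir6240, whose mature sequence is printed above, had 20.9, 25.8, 22.4 and 26.2 CPM at 0h, 66.2, 73.9, 39.1 and 29.05 at 2h, 33.5, 39.02, 17.1 and 23.997 at 4h and 46.3, 35.02, 151 and 54.3 at rev (ENSMUSG00000098343, chromosome 5, 114851948 to 114852064, plus strand). The reads fall on the 117-base hairpin and do not measure the mature miRNA. Its 2h libraries were above all 0h libraries and overlapped 4h. The first rev library of clone 8 was at 151 CPM, against 35.0 to 54.3 in the other 3, and the same library had the highest share of the 8 features above 1%, 78.9%. The change at rev against the mean of the others was 1.07 (SE 0.304, edgeR adjusted p 0.052), and the change from 4h to rev differed between clones by 2.03 (SE 0.4205, edgeR adjusted p 0.00109). The part of that library's composition was not tested. Its hairpin shared no run of 12 or more letters with the annotated transcripts of the 8 features above 1%, which include the ribosomal RNAs CT010467.1, mt-Rnr1 and mt-Rnr2. Other sequences were not compared, so whether its reads come from elsewhere, other ribosomal RNA included, was not tested.

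Nrk, Stard8, Parm1 and Serinc1 rose at rev with less in common by function. Nrk, an X-linked kinase gene (ENSMUSG00000052854, chromosome X, 138914430 to 139010532, plus strand), had 30.8, 41.4, 7.099 and 7.04 CPM at 0h, 82.6, 108, 9.88 and 14.8 at 2h, 47.4, 29.8, 6.69 and 8.799 at 4h and 91.96, 103, 13.96 and 10.3 at rev. Levels were several times higher in clone 4, and in both clones the 2h libraries were above those of 0h and 4h. Its change at rev against the mean of the others was 0.80 (SE 0.155, edgeR adjusted p 0.00469), and it was not called in clone 8 alone (0.41) or without the second rev library of clone 4. Stard8 (ENSMUSG00000031216, chromosome X, 99003248 to 99074728, plus strand) had 12.7, 18.05, 30.95 and 23.5 CPM at 0h, 28.4, 36.4, 57.5 and 57.2 at 2h, 15.6, 13.9, 36.4 and 30.8 at 4h and 23.4, 30.3, 51.2 and 51.9 at rev. Within each clone the 2h and rev libraries were above 0h and 4h, with a change at rev of 0.47 (SE 0.116, edgeR adjusted p 0.0254), a call lost in clone 4 alone and without any 1 of 3 rev libraries (clone 4 number 2, clone 8 number 1 or 2). Parm1, a mucin-like membrane protein gene (ENSMUSG00000034981, chromosome 5, 91517615 to 91626894, plus strand), had 7.71, 6.15, 8.23 and 8.997 CPM at 0h, 7.02, 10.9, 20.8 and 18.3 at 2h, 3.802, 4.63, 6.95 and 7.599 at 4h and 9.08, 12.5, 23.3 and 18.6 at rev. All rev libraries were above all 0h and 4h libraries, at 0.88 (SE 0.167, edgeR adjusted p 0.00403). Serinc1, a membrane protein gene named after its values were seen, had 116 to 148 CPM at rev, above every 0h and 4h library (65.7 to 111), and changed by 0.38 (SE 0.081, edgeR adjusted p 0.0102).

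The remaining genes called at rev, named for completeness of that count, were S100a1, Gpr85 and the antisense RNA B930036N10Rik, all with under 50 counts on average at 2h, of which S100a1 and Gpr85 met the minimum only through rev. Gpr85 and B930036N10Rik lost their calls with the replicate block and in other alternatives. Of the 61 genes, 37 had under 500 counts in total over 16 libraries, so that single libraries weigh heavily there.

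The clones are separate lines, and the choice averaged over them. The median of 2h minus 0h was 1.15 in clone 4 and 0.73 in clone 8 on log2(CPM + 1), and the rise was larger in clone 4 for 44 genes and larger in clone 8 for 17. A larger change in clone 4 was common to most genes: the size of 2h minus 0h was larger there for 7269 of all 11924. Taken alone, clone 4 met all thresholds for 49 of the 61 genes and clone 8 for 26, and 15 met them in both. Rev minus 0h had medians of 0.85 and 0.53. The test of the difference between clones, which the choice did not use, called 5 genes at 2h against 0h (7.94% of all tested genes), all with a lower change in clone 8: Prickle1, Sp4, Mef2a, Zfp296 and Hmcn1. Hmcn1, an extracellular matrix gene named after its values were seen, had 0 counts in both 0h libraries of clone 4, so its difference has no defined size; it was at 1.67 and 3.75 CPM at 2h in clone 4 and went from 9.09 and 6.26 to 12.5 and 13.1 in clone 8.

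At 4h against 2h the clones differed for 10 genes (14.8% of all tested genes), and at rev against 4h for 9 (13.2%). The comparison at rev against 4h covers all 61 genes, 18 of which met the count minimum only through rev. Tent5c, among the 9, is such a gene, so that count is a description. These 3 shares, 5, 10 and 9 of 61, lie near the background of all genes. The 10 at 4h against 2h were Ano10, Prickle1, Lats2, Zfp296, Zc3h12c, Sp4, Ddias and Eda2r, with a smaller fall in clone 8, and Txnip and Tent5c, with a larger one. The 9 at rev against 4h were Tent5c, Mir6240, 6330410L21Rik and Txnip, with a higher change in clone 8, and Id4, Prickle1, Zc3h12c, Eda2r and Ddias, with a higher one in clone 4; Ano10, Ddias, Tent5c and 6330410L21Rik are named to complete these counts. Leaving out 1 library moved these counts to between 1 and 7, 2 and 12, and 2 and 9. The lowest were reached without the first 0h library of clone 8 for 2h against 0h, and without the first 4h library of clone 4 for both others.

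**Figure D5:**
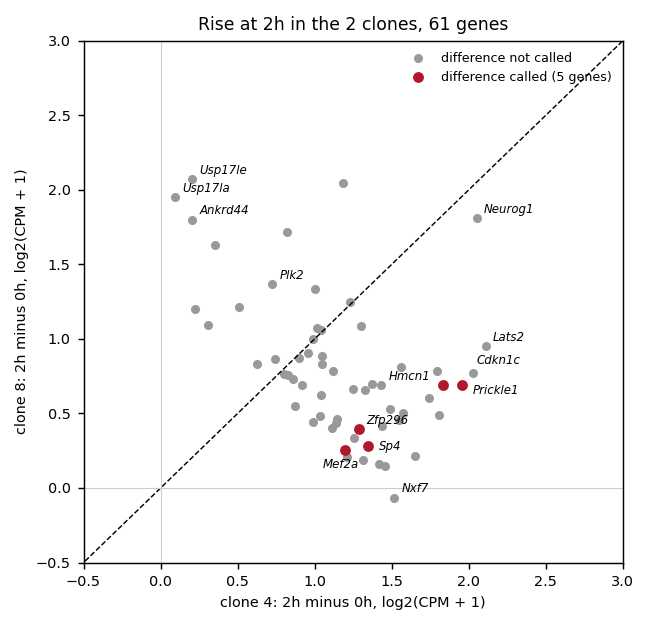
Difference of 2h minus 0h on log2(CPM + 1) in clone 4 (horizontal) and clone 8 (vertical) for the 61 genes, with the line of equal change dashed. Red points are the 5 genes whose change differed between clones by edgeR's test; 44 points lie below the line, and Usp17le and Usp17la lie near 0 in clone 4.

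Other gene lists are given by their counts, to be read in the main fit against 9.49% of all genes higher at 2h than at 0h and 6.36% lower at 4h than at 2h. With library totals, 348 of 12742 genes were higher and 98 lower at 2h, and 237 lower at 4h than at 2h. Without the clone covariate these counts were 438, 319 and 132. Of 55 tested primary-response genes outside the left-out symbols, 24 were higher and 3 lower at 2h than at 0h, and 3 were higher and 14 lower at 4h than at 2h. Ccn2, Plk2 and Txnip, which are in the set, are among the 24 and the 14 and were chosen on those same values. At rev against the mean of the others 7 were higher, among them Plk2 and Txnip, and 8 lower (2.35% and 1.79% of all genes), which became 1 and 11 with library totals and 2 and 4 without the clone covariate. Over all 12742 genes these counts were 52 and 253 with library totals and 46 and 39 without the covariate. Of 16 Wnt, BMP and Nodal early targets, 4 were higher at 2h and 5 lower at 4h than at 2h, with Id4 in the set; without the clone covariate edgeR called 2 and then 0 (5 at an unadjusted p under 0.05; 3 by DESeq2 with the covariate). Id4 is among the 4 and the 5 and was chosen on those same values. Lists with no gene in the set had these counts at 2h against 0h. Of 19 SRF and MRTF cytoskeletal genes 5 were higher, but 1 with library totals. Of 15 heat-shock genes 2 were higher and 1 lower, a share of higher genes near that of all genes, and with library totals edgeR called 0 higher (1 at an unadjusted p under 0.05; 3 by DESeq2). Of 26 epithelial junction genes 6 were higher and 2 lower, but 3 higher with library totals. Of 15 naive pluripotency genes 6 were higher and 1 lower, but 2 higher with library totals or without the clone covariate. Of the naive genes 6 were lower at 4h than at 2h, or 1 without the clone covariate. Of 30 ribosome biogenesis genes 8 were higher, but 0 by edgeR with library totals (4 at an unadjusted p under 0.05; 9 by DESeq2). Of 12 glucocorticoid and circadian genes 1 was higher and 3 lower, calls not kept with library totals (3 and 1 at an unadjusted p under 0.05; 2 and 2 by DESeq2). Of 20 ATF4 response genes 1 was higher and 7 lower, or 5 lower with library totals. The lists, like the set, were chosen with earlier results in view, and comparisons that share the 2h libraries are not independent.

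Sequence features of the set are given here as medians beside those of all tested genes, with no test. The 47 protein-coding genes had a longest coding transcript of 3661 bases, against 3260.5 over 11670 tested protein-coding genes, a GC content of 47.7% against 50.4%, and 8 exons against 9. Their 3′ UTRs were 1474 against 1234.5 bases long, and held 1.96 against 1.34 copies of ATTTA, the core of AU-rich elements known from short-lived mRNAs, per kb (44 and 11216 genes with UTRs of at least 100 bases). Single-exon genes were 3 of 47 (6.38%) against 2.54%. By chromosome, 9 of the 61 lay on chromosome 7 (14.8% against 8.05% of tested genes) and 5 on X (8.20% against 3.25%). Of the 9 on chromosome 7, Usp17la and Usp17le are copies of 1 family.

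Promoter motifs were searched as exact letters on both strands in the 300 bases around each start. TEAD (CATTCC) was in 14.3% of the 42 promoters, against 11.999% of 12168 promoters of tested genes and 14.7% of all 32851. The TATA box (TATAAA) was in 11.9%, against 6.67% and 13.6%, a heat-shock element (GAANNTTC) in 11.9%, against 5.45% and 7.86%, and the E-box (CACGTG) in 9.52%, against 10.2% and 7.15%. The cAMP response element (TGACGTCA), AP-1 (TGANTCA), EGR (GCGTGGGCG), ETS (CCGGAAGT) and STAT (TTCNNNGAA) motifs were each in 2.38%, which is 1 promoter, against 3.07%, 4.64%, 1.22%, 8.15% and 6.57% of tested genes. The CArG box was in none, against 1.22%. The ETS match was that of Acvr2a, the EGR match that of Prickle1 and the STAT match that of Usp17la. With 42 promoters, 1 promoter is 2.38%, so small differences in share cannot be read, and no match says only that those letters are not in the window.

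Some counts in the set may belong to neighbours. Of the 61 genes, 17 share exon sequence with another annotated gene, 16 of them with one on the opposite strand. Of the 6 TEC transcripts, 4 lie inside a same-strand coding gene (Gm38257 in Arl5b, Gm43339 in Mphosph9, Gm45221 in Picalm and Gm45477 in Gatad2b), as does Eid3 in Txnrd1, so unspliced reads of the host can fall on them. The antisense RNA 6330410L21Rik shares 12.9% of its exon length with Egf and BC028777 29.1% with Ntn3 and Tedc2.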

How the data were processed

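RNA-seq of 16 libraries was analysed from 1 deposited table of whole-number counts per Ensembl gene ID. The counts are the authors' own and not normalized. The submitters' processing notes name bcl2fastq 2.19.1, STAR 2.5.3a and mm10; the counter, annotation and strand setting are not given in the sources used here. Per the labels' protocols, RNA was rRNA-depleted. Symbols and coordinates came from GENCODE M21 (GRCm38), which matched 52489 of 52636 IDs. Groups came from the titles. The 61 genes and all gene lists were chosen with earlier results of these data known.

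The main test was edgeR 4.0.16 (R 4.3.3), quasi-likelihood F test, filterByExpr by group (minimum count 10, minimum total 15), TMM, clone as covariate, adjusted p under 0.05 over 12742 genes; clone differences were contrasts among 8 means. The alternative tool was DESeq2 1.42.0. Standard errors are the log2 change over the square root of F. On simulated counts, the comparison of rev with the mean of the others recovered 92 of 100 genes changed by 1 and 99 of 100 changed by 2 on the log2 scale, with 12 false calls among 12469 genes. The simulation gave all genes the same fixed dispersion and had no clone effect, so it checks the fit and does not give its recovery in these libraries. Named genes had at least 50 counts on average at 2h and were the 12 largest 2h rises, the 5 highest and 5 lowest at rev, the 4 largest called clone differences at 2h and at rev, or members of a list, beside those at the thresholds. Alternatives covered scaling, filter, tool, clone, block, thresholds and single libraries. Replicate libraries differed by more than sampling noise and were all kept.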

Additional observations from a re-analysis of the deposited data

Results flagged for a closer look

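Of 80 groups of 4 libraries examined for the named genes, 3 held a library that stood far from the other 3, where chance gives about 1 in 20. Plk2 was at 72.1 CPM in the first 0h library of clone 4, against 57.5 to 59.1 in the others. Acvr2a was at 45.3 CPM in the second rev library of clone 8, against 38.0 to 38.8. Mir6240 was at 151 CPM in the first rev library of clone 8, against 35.0 to 54.3, in the library with the highest share of the 8 features above 1% of counts (78.9%).

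Changes of named genes differed between the clones by edgeR's interaction test in 17 cases. Some genes were named because this test called them, so the count is partly set by the choice of names. Of all tested genes, the test called 7.94% at 2h against 0h, 14.8% at 4h against 2h and 13.2% at rev against 4h. At 2h against 0h the clone 8 change minus the clone 4 change was -1.09 for Mef2a, -1.40 for Prickle1, -1.17 for Sp4 and -0.97 for Zfp296 on the log2 scale. At 4h against 2h it was 0.56 for Eda2r, 1.44 for Lats2, 1.95 for Prickle1, 1.02 for Sp4, -0.91 for Txnip, 1.03 for Zc3h12c and 1.39 for Zfp296. At rev against 4h it was -0.74 for Eda2r, -1.72 for Id4, 2.03 for Mir6240, -1.57 for Prickle1, 1.02 for Txnip and -1.50 for Zc3h12c. Prickle1 was the 1 named gene that differed in all 3 comparisons.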

How the results depend on the processing

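Leaving out 1 library at a time gave between 9 and 19 of the 61 genes called at rev against the mean of 0h, 2h and 4h, between 16 and 26 at rev against 4h, 17 and 31 at rev against 0h, and 1 and 3 at rev against 2h. These counts include the 18 genes that met the count minimum only through rev and are a description. For the clone differences it gave between 1 and 7 at 2h against 0h, 2 and 12 at 4h against 2h and 2 and 9 at rev against 4h. The clone differences at rev against 4h include the same 18 genes and are a description too. For the genes meeting the rule it gave between 56 and 104, of which 39 to 56 were shared with the 61. The lowest counts were without rev clone 4 number 2 (9 at rev against the mean, 16 against 4h) and without 0h clone 4 number 1 (17 against 0h). Clone differences at 2h against 0h were also fewer without 0h clone 4 number 2 (3) and 2h clone 8 number 1 (2), those at 4h against 2h without 2h clone 4 number 2 (5), 2h clone 8 number 1 (6), 4h clone 8 number 1 (5) or 2 (6), and those at rev against 4h without 4h clone 8 number 1 (5) or rev clone 8 number 2 (5). The rule found most genes without 2h clone 4 number 1 (104) or 2 (92). The median change at rev against the mean ran from 0.41 to 0.50.

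In the order rev against the mean, 4h, 0h and 2h, an adjusted p under 0.01 gave 9, 14, 16 and 1 genes, library totals without TMM 6, 10, 10 and 4, and no clone covariate 3, 7, 9 and 1. Over all 12742 genes, rev was higher than the mean, 4h and 0h for 300, 574 and 702 in the main fit. These counts were 52, 84 and 106 with library totals and 46, 95 and 149 without the covariate. Taking the count minimum over the 12 libraries outside rev, chosen after seeing the data, gave 43 genes with 11 called and a median of 0.34 for 160 counts, and 52 with 12 called and a median of 0.39 for 120 counts. With library totals the median was 0.20; features above 1% of counts fill those totals, and with them removed, a setting chosen after seeing the data, 17 genes were called. Rev against 2h gave 8 with no filter on low counts, 1 with the replicate block, 6 in clone 4 alone and 4 in clone 8 alone; rev against 0h gave 19 in clone 8 alone. The clone differences at 2h, 4h and rev gave 2, 4 and 5 at an adjusted p under 0.01, and 2, 4 and 5 by DESeq2. Library totals gave 0 for the clone difference at 2h against 0h (edgeR; 2 by DESeq2 and 5 with TMM) and 2 at 4h against 2h. The cause of these moves was not tested. Over all genes, rev was higher than 0h for 676 of 12831 in clone 8 alone. Counts over all genes are not given for an adjusted p under 0.01 or for the alternatives of rev against 2h. They are also not given for the alternatives of the clone differences or for single libraries left out. The counts of the set in those settings therefore have no background beside them.

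The rule found 106 genes with thresholds of 0.6, 38 with 0.8, 127 with no minimum count, 23 with a minimum of 500 counts, 225 in clone 4 alone and 122 in clone 8 alone. Reading the denominator as all counts outside the 8 features, chosen after seeing the data, gave 62. Library numbers did not pair the samples: deviations of libraries with the same clone and number correlated at -0.0218 on average over 12 pairs (-0.220 to 0.145). The replicate block gave 14, 21 and 28 of the 61 genes higher at rev against the mean, 4h and 0h. Over all 12742 genes it gave 215, 429 and 551, against 300, 574 and 702 in the main fit. Of the values of single named genes at rev, 431 kept their side of the threshold, 30 lost the call and 12 gained it. None reversed direction where the main fit or the alternative called it. Direction was not followed where neither did, so uncalled values near 0 may have changed sign. In the smallest library, with 1.30 M usable counts, 3 counts are 2.33 CPM, so low genes were not resolved there.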
